A study of Mus musculus with 8 samples.

Results

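Genes of the S100 family were followed in 4 primary cultures of mouse hind limb muscle, measured on the Affymetrix array types MOE430A and MOE430B. Every probe set with a single gene symbol that named 1 of 10 listed genes was taken, under the current name or an older alias. This gave 14 probe sets for 9 genes, out of 45037 probe sets and 18193 named genes in all: S100a1, S100a4, S100a6, S100a8, S100a9, S100a10, S100a13, S100a16 and S100b. For S100a11 the annotation pairs its probe set with 3 symbols, among them the pseudogene S100a11-ps, so S100a11 was not analysed here. The family was chosen by its measured signals, with the difference of S100a8 and S100a9 between the groups already known, so the differences of all members are given as a description and without a test.

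The putative muscle stem cells came from 2 preparations, and the strain, sex and age of the mice are not given in the sources used here. MACS cultures (replicates 2 and 3) had been sorted with magnetic beads that kept cells bearing Sca1, an antigen of many tissue progenitors, and removed those bearing CD45, which marks leukocytes. By flow cytometry more than 80% of the cells bore Sca1 and less than 1% bore CD45. PP6 cultures (replicates 2 and 3) came from preplating, which parts cells by how fast they stick to a dish, and had no purity estimate. All 4 grew in F10 Ham medium with 20% fetal bovine serum, and the contaminating cells named for both preparations are muscle cells. RNA was at 55 and 65 ng/ul for MACS and at 35 and 15 ng/ul for PP6, in replicate order. Nothing says whether the replicates came from different animals, so p-values and spreads here measure only the spread between these cultures, which may be technical. No detection calls came with the signals, and a signal below the median of its own array is called dim. The array medians were 9.14 to 9.30 log2 units on MOE430A and 9.60 to 9.79 on MOE430B.

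S100 proteins are small calcium sensors found in vertebrates. Each chain carries a pair of EF-hand loops, and most members work as dimers that bind target proteins once calcium is bound. The family divides by cell type as much as by structure. S100a8 and S100a9 form calprotectin, a metal-binding heterodimer that fills the cytosol of neutrophils and is released in inflammation, where it is a ligand of Tlr4 and of the receptor Ager. S100a4, also called fibroblast-specific protein, S100a6, S100a10, S100a13 and S100a16 are made by many mesenchymal cells, S100a1 by striated muscle and S100b by glia, with reports of S100b in adipocytes and myoblasts as well.

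Of the 10 listed genes 9 lie on mouse chromosome 3 and S100b on chromosome 10. In the RefSeq order of chromosome 3, S100a8 and S100a9 are neighbours with 0 coding genes between them. Promoter windows of 300 bases, which begin 250 bases before the annotated transcript start, were available from RefSeq (GRCm38.p6) for 9 of the 10 genes, and S100a10 has none in the table. Windows are shown for the calprotectin pair, for S100a4, the stromal member with the largest difference in its main probe set, and for S100a6, a stromal member whose cultures overlapped. Capitals mark TATAAA, the TATA box core, and GAGGAA, a core bound by the myeloid factor PU.1, searched on both strands. The windows are chr3:90668821-90669120 (plus strand), chr3:90695672-90695971 (minus strand), chr3:90603520-90603819 (plus strand) and chr3:90612644-90612943 (plus strand), each written 5′ to 3′ along its gene.
S100a8: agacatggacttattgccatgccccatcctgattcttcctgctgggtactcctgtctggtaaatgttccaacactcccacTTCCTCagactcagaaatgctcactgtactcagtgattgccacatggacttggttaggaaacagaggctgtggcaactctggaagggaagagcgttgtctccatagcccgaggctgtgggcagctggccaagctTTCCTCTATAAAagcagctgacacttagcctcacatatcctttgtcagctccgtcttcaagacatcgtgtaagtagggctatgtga
S100a9: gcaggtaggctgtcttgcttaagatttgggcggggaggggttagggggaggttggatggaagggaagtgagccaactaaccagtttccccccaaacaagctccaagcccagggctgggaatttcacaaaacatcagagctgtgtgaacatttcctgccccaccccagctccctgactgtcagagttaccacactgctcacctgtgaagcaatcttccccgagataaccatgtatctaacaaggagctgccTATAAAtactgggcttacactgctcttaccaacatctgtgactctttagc
S100a4: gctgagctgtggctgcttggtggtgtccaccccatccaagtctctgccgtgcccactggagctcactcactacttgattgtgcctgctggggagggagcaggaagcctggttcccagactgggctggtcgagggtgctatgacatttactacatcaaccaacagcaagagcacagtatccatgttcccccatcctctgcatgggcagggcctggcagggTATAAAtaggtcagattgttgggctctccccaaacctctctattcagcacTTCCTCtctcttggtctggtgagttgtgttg
S100a6: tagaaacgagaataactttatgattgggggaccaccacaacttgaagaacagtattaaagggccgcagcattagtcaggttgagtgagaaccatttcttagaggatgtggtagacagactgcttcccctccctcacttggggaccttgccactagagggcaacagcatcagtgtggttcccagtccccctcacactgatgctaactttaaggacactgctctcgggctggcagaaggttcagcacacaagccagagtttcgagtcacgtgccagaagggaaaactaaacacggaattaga

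TATAAA began 30 bases before the annotated start in S100a8 and 31 bases before it in S100a4. In S100a9 its first base was base 1 from the annotated start. The windows of the other members with a sequence held none. Of 32851 annotated mouse starts, 13.6% held TATAAA in such a window. GAGGAA was matched 2 times in S100a8, on the opposite strand, and 1 time each in S100a4, S100a11 and 1 of the starts of S100a16, where 28.3% of all starts held it. S100a9 had no GAGGAA, and it was the one member to hold TTGCNNAA, a C/EBP-type pattern, which 10.8% of all starts held. The pattern of matches thus differed between S100a8 and S100a9. In S100a8 the second GAGGAA ends where TATAAA begins, and the motifs do not overlap. These are letter matches and not measured binding.

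S100a8 and S100a9, which encode the chains of calprotectin, were far higher in both PP6 cultures than in both MACS cultures. Log2 signal of S100a8 was 9.69 and 9.59 in MACS replicates 2 and 3, and 14.56 and 16.55 in PP6 replicates 2 and 3. The groups were far apart, and PP6 replicate 3 was the highest. On the linear scale these are signals of 826 and 772 in MACS against 24198 and 95850 in PP6. Group means were 9.64 ± 0.07 and 15.56 ± 1.40 (SD, n = 2), a 60.3-fold difference. S100a8 was above the array median in all 4 cultures. Its only probe set carries the suffix _s_at, which marks probes that can match several transcripts.

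S100a9 showed the same order of cultures. Its log2 signal was 8.87 and 8.04 in MACS, dim in both, and 14.20 and 16.42 in PP6. Means of 8.45 ± 0.59 and 15.31 ± 1.57 (SD, n = 2) differ by 6.85 log2 units, or 115-fold. Since the MACS signals were dim, that fold has no firm base. With a floor at the array median for each dim signal, the difference was 6.14, or 70.6-fold. S100a8 did not move under that floor and stayed at 5.91.

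**Figure D1:**
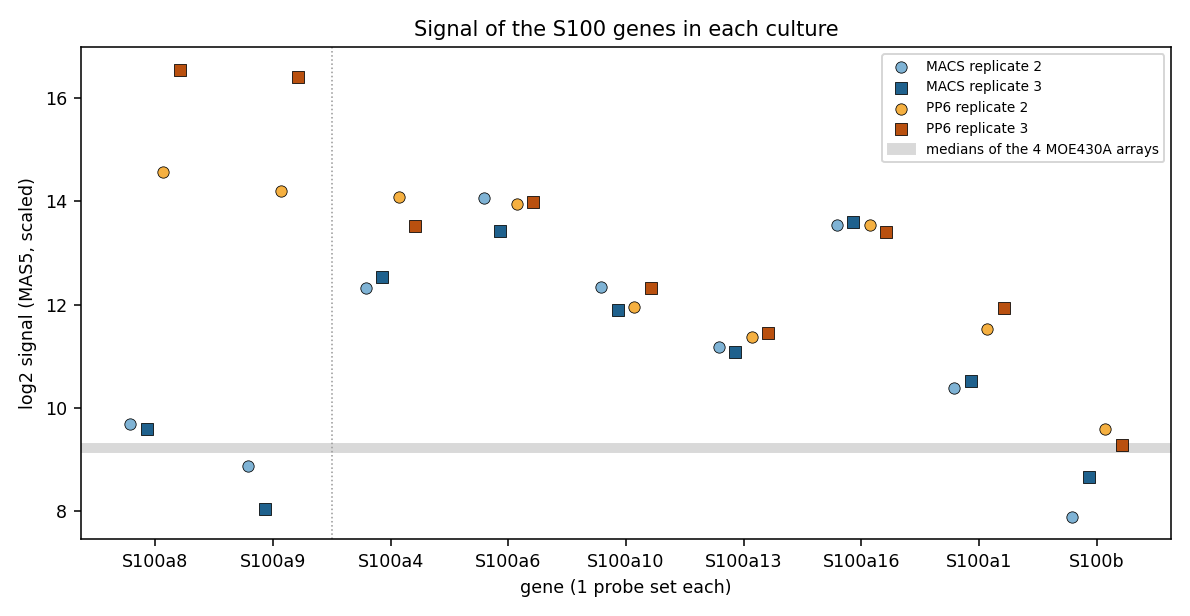
Log2 signal (vertical axis) of the 9 S100 genes measured, 1 probe set each, with 1 point per culture: blue for MACS, orange for PP6, circles for replicate 2 and squares for replicate 3. The grey band spans the medians of the 4 MOE430A arrays, and S100a8 and S100a9 (left of the dotted line) show the wide gap between PP6 (14.20 to 16.55) and MACS (8.04 to 9.69). Heights compare cultures within a gene, not genes with each other.

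The PP6 cultures differed from each other in both genes. S100a8 was 1.99 log2 units and S100a9 2.22 units higher in PP6 replicate 3 than in replicate 2. Among all 18193 genes 3.65% differed by at least 1.99 in that direction, and 1.41% of the genes that passed the filter, and the median difference of all genes was -0.02. Against the MACS mean, the pair's average stood at 5.33 in PP6 replicate 2 and 7.43 in PP6 replicate 3, while the MACS cultures lay at 0.23 and -0.23. PP6 replicate 3 also had the lower RNA concentration, and the part this played was not tested. In bulk RNA a larger share of cells that make a transcript and more of it per cell cannot be told apart.

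Among all probe sets that passed the signal filter, limma called 0% higher and 0% lower in PP6 at a Benjamini-Hochberg adjusted p of 0.05, that is 0 of 23963 in each direction. At an unadjusted p under 0.05 there were 1364 higher (5.69%) and 1396 lower (5.83%), and with 1 probe set a gene 5.81% of genes were higher and 5.44% lower. Centring the arrays on their medians moved that split to 948 higher and 1983 lower. Without the intensity trend limma again passed 0, with 1303 and 1093 at the unadjusted threshold. Fitted alone, MOE430A gave 55 past the adjusted threshold as higher and 16 as lower, and MOE430B gave 0 and 0. The design has 2 cultures a group, where an exact permutation test of a single gene cannot give a two-sided p below 0.333. Both PP6 cultures lay above both MACS cultures in 24.4% of all genes, and below both in 18.5%. Among genes that passed the filter the shares were 23.8% and 21.9%. Of the 9 S100 genes measured 6 had both PP6 cultures above both MACS cultures, 1 had both below and 2 overlapped.

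S100a4 was the stromal member with the largest difference in its main probe set. It encodes a binder of non-muscle myosin that marks fibroblasts and is also made by leukocytes. Its log2 signal was 12.33 and 12.54 in MACS, and 14.08 and 13.52 in PP6. The groups did not overlap, and unlike the calprotectin pair S100a4 was highest in PP6 replicate 2. Means were 12.43 ± 0.15 and 13.80 ± 0.40 (SD, n = 2), a 2.58-fold difference. Igfbp5, a secreted binder of insulin-like growth factors, had the most similar profile over the 4 cultures among 12270 genes that passed the filter. Its root mean square distance from S100a4 was 0.07 log2 units after each profile was centred on its mean. Mocs1, Nnmt, Tcn2 and Chchd10 came next, at 0.09 to 0.10. With 4 cultures, likeness of this kind is a description of these arrays.

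S100a6, or calcyclin, an abundant S100 protein of fibroblasts and dividing cells, did not separate the groups. Log2 signal was 14.06 and 13.42 in MACS and 13.96 and 13.99 in PP6. Both PP6 values lay between the MACS values. The mean difference was 0.24, and it was -0.08 without MACS replicate 3 and 0.56 without MACS replicate 2. S100a16, a widely expressed member, stood at 13.54 and 13.60 in MACS and 13.54 and 13.41 in PP6. PP6 was below MACS by 0.10 log2 units, or 0.22 with the arrays centred on their medians, and by 0.15 in its MOE430B probe set, where the groups overlapped.

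S100a10, the p11 protein that joins annexin A2 at the plasma membrane, had 3 probe sets and none separated the groups. In the brightest MOE430A probe set the log2 signal was 12.34 and 11.89 in MACS and 11.96 and 12.33 in PP6, a mean difference of 0.03. The other MOE430A probe set gave 0.27 and the MOE430B probe set -0.27. The sign of S100a10 thus depended on the probe set, and with the arrays centred on their medians the brightest one gave -0.09. S100a13, which takes part in the release of Fgf1 and Il1a, proteins without a signal peptide, was 11.19 and 11.09 in MACS and 11.37 and 11.45 in PP6. That is a small step of 0.27 log2 units (SD 0.07 and 0.06, n = 2 each), and with the arrays centred on their medians it was 0.15.

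S100a1, which regulates calcium release and uptake in striated muscle, had probe sets that did not match each other. The brighter probe set, whose suffix _s_at marks probes that can match several transcripts, gave 10.39 and 10.52 in MACS and 11.53 and 11.93 in PP6, a difference of 1.28 with no overlap. The other probe set was dim in all 4 cultures, at 7.63, 7.58, 7.05 and 8.91 in the same order, and its groups overlapped. Without probe sets of the suffixes _x_at and _s_at, S100a1 thus rests on the dim one, with 0.37, and the mean over both gave 0.83.

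S100b, the glial member, was dim in most cultures. Its brighter probe set gave 7.89 and 8.67 in MACS and 9.59 and 9.28 in PP6, above the array median in 1 culture, PP6 replicate 2. Its difference was 1.15, or 0.28 with the floor at the array median. A gene dim in all cultures differs by 0.13 under that floor, through the array medians alone. The other S100b probe set overlapped between groups, at 6.03 and 8.93 in MACS against 8.51 and 9.50 in PP6.

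**Figure D2:**
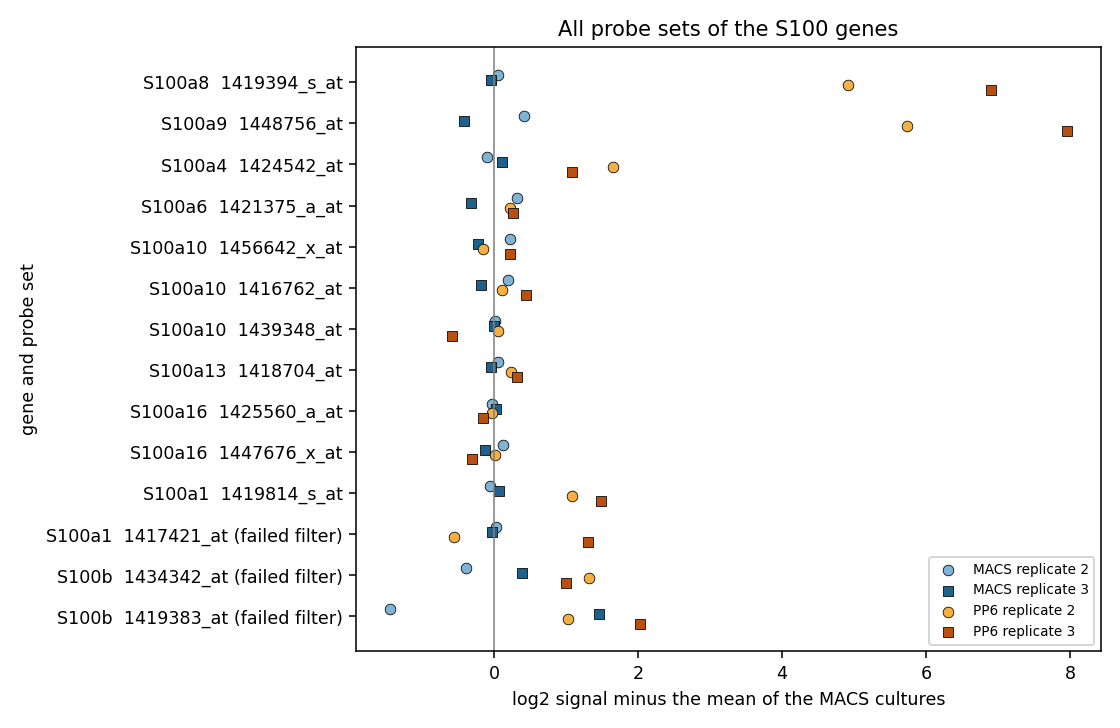
Log2 signal minus the mean of the MACS cultures (horizontal axis) for all 14 probe sets of the S100 genes, with the main probe set of a gene first, and 1 point per culture in the same colours and shapes. Probe sets that failed the signal filter are marked so. S100a8 and S100a9 stand at 4.92 to 7.96 in PP6, S100a4 at 1.09 to 1.65, and the 3 probe sets of S100a10 scatter around 0.

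The calprotectin pair stood apart from the other 7 S100 genes in each PP6 culture. The median of the other 7 against the MACS mean was 0.23 in PP6 replicate 2 and 0.31 in PP6 replicate 3, with a range over genes of -0.15 to 1.65 and -0.16 to 1.48. The pair exceeded that median by 5.10 and 7.12 log2 units. Over both cultures the pair's mean difference was 6.38 and the median of the others 0.27, where the median of all genes was 0.06. Without MACS replicate 2 the median of the others was 0.56.

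Along the cluster, S100a8 and S100a9, side by side, differed by 5.91 and 6.85. S100a7a, the neighbour of S100a8 on one side, was not analysed here, and S100a6, next after it, differed by 0.24. S100a7l2, beyond S100a9, differed by -0.21 and was dim in all 4 cultures. S100a1 and S100a13 are neighbours read in opposite directions, whose promoter windows overlap, and they differed by 1.28 and 0.27. The other measured genes of the cluster lay between -1.04 and 1.37, except the dim S100a14 at 2.89.

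**Figure D3:**
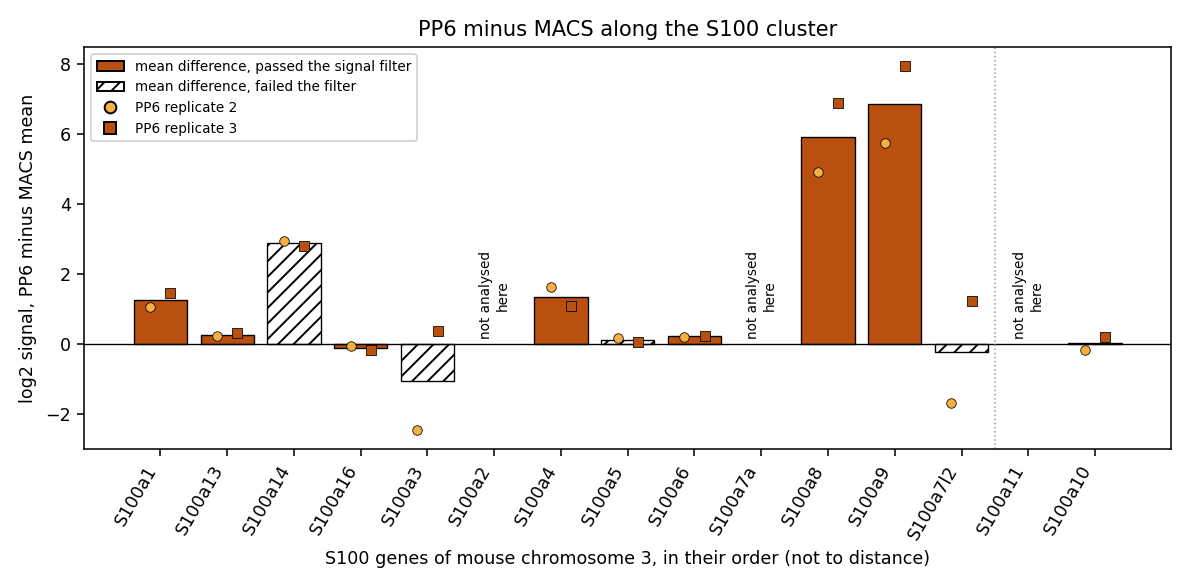
PP6 minus the MACS mean in log2 signal (vertical axis) for the S100 genes of mouse chromosome 3 in their order along the chromosome, evenly spaced and not to distance. Bars are the mean of both PP6 cultures, points the single PP6 cultures, hatched bars genes that failed the signal filter, and the dotted line marks the stretch of other coding genes before S100a11 and S100a10. The filled bars of S100a8 and S100a9 reach 5.91 and 6.85, and the other filled bars lie between -0.10 and 1.37.

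Markers of neutrophils and their precursors were also higher in PP6, in the order of the pair between the PP6 cultures. Of 17 such genes measured 15 had both PP6 cultures above both MACS cultures, 0 below and 2 overlapping. Among all genes 24.4% lay above and 18.5% below. Of the 14 that passed the filter 0 passed limma's adjusted threshold, with 12 higher at an unadjusted p under 0.05. Among all tested genes 5.81% were higher and 5.44% lower at that unadjusted threshold. Camp, Elane, Prtn3, Ctsg, Csf3r, Chil3 and Hp were dim in both MACS cultures and passed the filter through PP6 alone. For these genes the filter fixed the direction in advance, so their part in the count is no support for it. The list's median difference was 3.10 log2 units, or 3.09 with the floor at the array median. Summed signal of the list was 6752 and 13296 in MACS, and 97756 and 294195 in PP6. Such sums lean on the brightest probe sets, and Ngp alone gave 43645 and 123815 of the PP6 sums. The granule gene Ngp differed by 5.94 and the peroxidase gene Mpo by 3.10, both above the array median in all 4 cultures. Chil3, a chitinase-like gene of myeloid cells, and Prtn3, an azurophil protease gene, were dim in MACS. They differed by 9.27 and 6.39, or by 5.44 and 3.39 with the floor. Cxcr2, the chemokine receptor of mature neutrophils, was dim in all 4 cultures with a difference of -0.05, Itgam and Padi4 were also dim in all 4, and no marker was at 0. The 2 genes that overlapped were Cxcr2 and Mmp9, and Mmp9 was above the array median in all 4 cultures. Log2 signal of Mmp9 was 9.78 and 12.10 in MACS and 11.59 and 11.93 in PP6, a difference of 0.82. All 17 genes were higher in PP6 replicate 3 than in PP6 replicate 2, as were both chains of calprotectin, where 48.6% of all genes were.

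Genes of leukocytes in general and of macrophages had the same direction in most cases. Of 15 measured, 13 had both PP6 cultures above both MACS cultures, where 24.4% of all genes did, with a median of 1.42. Of 11 tested 0 passed limma's adjusted threshold, with 10 higher at an unadjusted p under 0.05, where 5.81% of all tested genes were. Ptprc, Cd53, Fcer1g and Coro1a, dim in both MACS cultures, passed the filter through PP6 alone, so the filter fixed their direction in advance. Ptprc, which encodes CD45, was dim in both MACS cultures, at 8.25 and 8.67, and stood at 9.71 and 11.43 in PP6. The MACS sort had removed cells bearing CD45, and its part in the values of this list was not tested. The macrophage genes Adgre1 and Csf1r differed by 1.26 and 1.05. The complement genes C1qa, C1qb and C1qc failed the filter, as did the macrophage gene Mrc1. The groups overlapped in Mrc1 and C1qc, at 0.70 and -0.58. Summed signal of this list was 10104 and 10281 in MACS, and 19883 and 51057 in PP6. The part that leukocytes in the PP6 cultures play in the S100a8 and S100a9 signal was not tested.

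Genes most like the calprotectin pair over the 4 cultures were not all myeloid. By the same distance the nearest were Myh3, the embryonic myosin heavy chain, at 0.40 log2 units and Prtn3 at 0.42, then Ngp at 0.60, the myoglobin gene Mb at 0.76 and the M-band gene Myom2 at 0.77. Of these 5 genes all but Ngp were above the array median in 2 of 4 cultures, so the order of likeness rests on dim signals. With the floor the difference was 1.97 for Myh3 and 3.39 for Prtn3. Prtn3 and Ngp are granule genes, while Myh3, Mb and Myom2 belong to muscle fibres. Of 12 muscle markers 9 had both PP6 cultures above both MACS cultures, 1 below and 2 overlapping, with a median of 2.31, or 1.83 with the floor. Among all genes 24.4% lay above and 18.5% below. Of 11 tested 0 passed limma's adjusted threshold, where 9 were higher and 1 lower before adjustment. Acta1, Myh3, Tnnt1, Tnnc1 and Tnnc2, dim in both MACS cultures, passed the filter through PP6 alone. The filter thus fixed their direction in advance, and their part in the count is no support for it. The fibre genes Tnnc1, Acta1 and Tnnt1 differed by 3.67, 4.42 and 3.16, all dim in MACS, and Myog, a factor of differentiating myoblasts, by 2.26. The precursor genes went otherwise, with Pax7, the satellite cell factor, at -1.56, Myod1 at -0.19 and Myf5, dim in all 4, at -0.28. The list's median was 1.70 in PP6 replicate 2 and 3.12 in PP6 replicate 3. Both the neutrophil and the muscle list thus stood furthest from MACS in PP6 replicate 3. The part of muscle cells in these values was not tested.

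Fibroblast markers had another order. Of 10 measured, 8 had both PP6 cultures above both MACS cultures, where 24.4% of all genes did. Of the 10, 0 passed limma's adjusted threshold, with 8 higher at an unadjusted p under 0.05, where 5.81% of all tested genes were. The median stood at 1.22 in PP6 replicate 2 and 1.20 in PP6 replicate 3. Summed signal was 92413 and 144688 in MACS, and 262574 and 253230 in PP6, where Dcn alone gave 110604 and 94544. The collagen gene Col1a1 differed by 2.17, the matrix protease gene Mmp2 by 1.23, the fibronectin gene Fn1 by 1.06 and the decorin gene Dcn by 1.23, beside 1.37 for S100a4. Pdgfra, a receptor of mesenchymal progenitors, and Lum, a matrix proteoglycan gene, overlapped between the groups, at 0.03 and -0.21. The list's median was 0.88 without MACS replicate 2 and 0.77 as a mean over all probe sets of each gene. The part of fibroblast content in the S100a4 difference was not tested. Schwann cell markers, listed for S100b, differed by a median of 1.04 over 8 genes, or 0.67 with the floor and 0.57 without MACS replicate 2. Of the 8, 6 had both PP6 cultures above both MACS cultures, where 24.4% of all genes did, and 2 overlapped, Gap43 at -0.45 and Gfap at 1.25. Of the 5 that passed the filter 0 passed limma's adjusted threshold, with 2 higher at an unadjusted p under 0.05. Among all tested genes 5.81% were higher at that unadjusted threshold. Cdh19 differed by 2.85 (1.75 with the floor), Erbb3 by 1.54, the myelin gene Mbp by 0.77 and Sox10, the glial transcription factor, by 0.57. Cdh19 was dim in both MACS cultures and passed the filter through PP6 alone, so the filter fixed its direction in advance. Slit2 had the profile nearest to S100b, at 0.07, but S100b itself was dim in 3 of 4 cultures and failed the filter, so that likeness has no firm base.

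**Figure D4:**
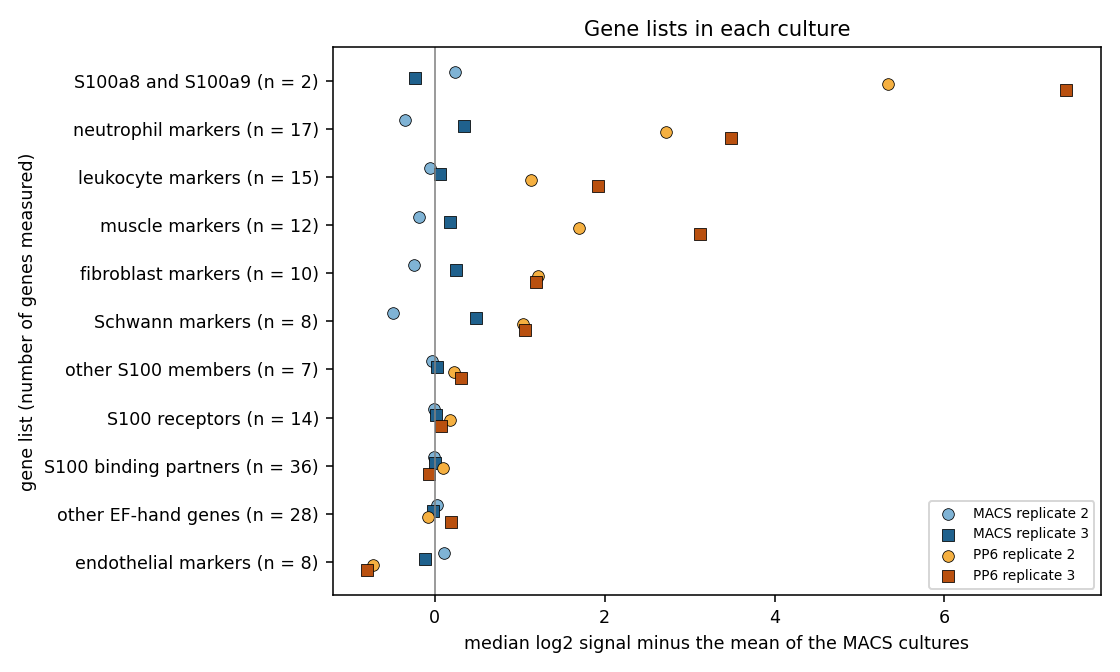
Median over the genes of a list of log2 signal minus the mean of the MACS cultures (horizontal axis), with 1 point per culture in the same colours and shapes and the number of genes measured beside each list. S100a8 and S100a9 and the neutrophil, leukocyte and muscle markers lie further from MACS in PP6 replicate 3, fibroblast markers lie at 1.22 and 1.20 in both, and the medians of the other S100 members reach 0.23 and 0.31 in PP6.

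Receptors of extracellular S100 proteins and their signalling genes had a small median difference and a wide range, from -0.85 to 2.16. Of 14 measured, 6 had both PP6 cultures above both MACS cultures and 0 below, where 24.4% and 18.5% of all genes did. Of 11 tested 0 passed limma's adjusted threshold, with Cd36 alone higher at an unadjusted p under 0.05, where 5.81% of tested genes were. The median of the list was 0.11. With the arrays centred on their medians that median was -0.01, as a mean over all probe sets 0.25, and without MACS replicate 3 it was 0.38. Tlr4, a receptor of calprotectin, was 9.46 and 9.98 in MACS and 9.88 and 9.65 in PP6, overlapping between the groups. Ager, the receptor for advanced glycation end products, was dim in all 4 cultures. Cd36, a scavenger receptor that binds the calprotectin complex with fatty acid, differed by 0.98 ± 0.32 (SE), at a limma adjusted p of 0.384, and Cd14, a partner of Tlr4, by 0.63 ± 0.26. Alcam, an adhesion molecule, differed by 0.97 with both MACS cultures dim. Cd33, a myeloid lectin, differed by 2.16 with overlap, or by 0.69 with the floor, and Cd69, which failed the filter, by 1.35, or 0.17 with the floor. Bsg, which encodes an S100A9 receptor known in human cells, differed by 0.28, and the adaptor gene Myd88 by 0.18.

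Listed binding partners of S100 proteins went both ways. Of 36 measured, 11 had both PP6 cultures above and 9 both below both MACS cultures, where 24.4% and 18.5% of all genes did. Their median was 0.01, and 0 of 33 tested passed limma's adjusted threshold in either direction. Before adjustment 3 of them had a limma p under 0.05 as higher and 3 as lower, beside 5.81% and 5.44% of all tested genes. With the arrays centred on their medians the list's median was -0.11. Anxa2, the partner of S100a10, was 15.88 and 15.83 in MACS and 16.09 and 15.84 in PP6, a difference of 0.11 beside 0.03 for S100a10. Myh9 and Myh10, the non-muscle myosins bound by S100a4, were lower in both PP6 cultures by 0.56 and 0.58 log2 units while S100a4 was higher. Cacybp and Sugt1, partners of S100a6, differed by -0.43 and -0.54, and the groups overlapped in Sugt1. Fgf1 and Il1a, cargo of the S100a13 release route, differed by 0.36 and -0.06, and Il1a was dim. The calcium channel Ryr1 and the calcium pump Atp2a1, muscle targets of S100a1, differed by 1.93 ± 0.47 and 2.42 ± 0.41 (SE), at limma adjusted p of 0.323 and 0.282. Ryr1 was dim in both MACS cultures and passed the filter through PP6 alone, so the filter fixed its direction in advance. With the floor Ryr1 differed by 0.68. Atp2a2, the pump isoform of slow muscle and other cells, differed by -0.41. Arg1, a macrophage enzyme on the same list, differed by 2.47.

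S100 genes outside the list of members did not pass the signal filter. S100a3, S100a7l2, S100a14 and S100g were dim in all 4 cultures, and S100a5 and the binding protein gene S100pbp were above the array median in 1 culture per probe set. S100a14, an epithelial member, was 5.42 and 5.26 in MACS and 8.30 and 8.16 in PP6, a difference of 2.89 that lies wholly below the array median.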

How the data were processed

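Per the submitters' processing notes, the authors computed signal intensity with MAS5 (version not given). The deposited intensity values are linear, 1 per probe set and array, with 2% trimmed means (each end) of 1501 on MOE430A and 1500 on MOE430B. Scanner setting files served to count chip lots and fluidics modules: per array type 4 arrays shared 1 lot, 1 hybridisation day and 1 scan day, with 1 module per culture. Signals were scaled to a common trimmed mean, log2-transformed with no pseudocount, and both array types of a culture were stacked, without 64 control probe sets per type and 1 copy of 100 shared ones. A probe set was tested if above its array median in at least 2 of 4 cultures. Groups were tested with lmFit and eBayes (trend) of limma 3.58.1 under R 4.3.3, two-sided, with 2 residual degrees of freedom and Benjamini-Hochberg adjustment over 23963 probe sets. The fit was also run on simulated data as a check of the code, and no result here rests on it. Each gene was read from 1 probe set, ranked by passing the filter, then array type (MOE430A first), then brightness. Symbols were updated to RefSeq through Entrez identifiers. S100a10 has no promoter window here, and no protein sequence was used. The number of arrays limits precision. Genes named are all members, list genes that mark or bind what a member touches, and up to 4 per list with the smallest p. Pdgfra, Lum, Pax7, Myod1, Myf5, Gap43, Gfap, Cd69, Pparg, Retn, Mmp9, Mrc1 and Tie1 were added after their values were seen. So were genes named for passing the filter through PP6 alone. Members, lists and alternatives were chosen with earlier results of these data known. Alternatives were other scalings, a pseudocount at the 20th percentile, other filters, a floor at the array median, other choices of probe set, each array type alone, the replicate block and leaving out each culture. Probe sets with several symbols were left out: 691 on MOE430A and 245 on MOE430B had several and 1606 and 7656 none, against 20393 and 14674 with 1.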

Additional observations from a re-analysis of the deposited data

How the results depend on the processing

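The mean difference of S100a8 and S100a9 ran from 6.03 to 6.38 under the scaling, pseudocount, filter, floor and probe set alternatives, and from 5.33 to 7.43 when single cultures were left out. Without probe sets of the suffixes _x_at and _s_at S100a8 has no value, so the pair has none. The median of the other members was 0.15 with median centring, which shifts all tested probe sets by -0.12, and 0.22 to 0.56 when single cultures were left out, without MACS replicate 3 and without MACS replicate 2. The median log2 difference of S100 receptors and their signalling turned to -0.014 with median centring. Of 23963 probe sets 0 passed in either direction. Higher calls numbered 5 with the 75th percentile filter, 18 with the floor, 55 with MOE430A alone, 2 with the replicate block, and 0 to 1 when single cultures were left out, the 1 being without PP6 replicate 2. Lower calls numbered 5 with the floor and 16 with MOE430A alone. MOE430A alone tests 11835 probe sets, and MOE430B alone, with 12228, gave 0 and 0. With the floor each dim signal takes the median of its own array, and the cause of these changes was not tested. Replicate numbers are shared by the groups, and deviations from the group means of same-numbered cultures correlated at -0.03. With 2 cultures a group this cannot show whether same-numbered cultures were prepared together. Among single members, S100a1 was 0.37 without the suffixes named, S100b 0.28 with the floor, S100a10 -0.27 with MOE430B first, and S100a6 -0.08 without MACS replicate 3. At an unadjusted p under 0.05 there were 648 higher without PP6 replicate 3, 863 when PP6 replicate 2 was the one left out, and 918 lower without MACS replicate 2, while without a filter 2216 of 45037 were higher.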

Other observations

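EF-hand calcium binders outside the S100 family, were set beside it. Of 28 measured, 7 had both PP6 cultures above both MACS cultures and 5 both below, where 24.4% and 18.5% of all genes did. Their median difference was 0.06 log2 units, and 0 of 24 tested passed the limma adjusted threshold. Before adjustment 1 had a limma p under 0.05 as higher and 2 as lower, beside 5.81% and 5.44% of all tested genes. With the arrays centred on their medians the median was -0.06. The smallest p belonged to Actn1 and Pls3, actin bundlers of non-muscle cells, which were lower by 0.86 ± 0.19 and 0.92 ± 0.23 (SE), at limma adjusted p of 0.314 and 0.323. Lcp1, the leukocyte relative of Pls3, was 9.15 and 9.06 in MACS and 10.06 and 11.46 in PP6, with PP6 replicate 3 the highest, as for S100a8 and S100a9. Sdf4, a calcium binder of the Golgi, differed by 0.58 ± 0.24.

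Endothelial markers lay below MACS in both PP6 cultures in 8 of 8 genes, where 18.5% of all genes did. Their median was -0.82, or -0.50 with the floor and -0.54 without probe sets of the suffixes _x_at and _s_at. It ran from -0.86 to -0.66 when single cultures were left out. Of 7 tested genes 0 passed the limma adjusted threshold, with 3 lower at an unadjusted p under 0.05, where 5.44% of tested genes were. Tie1, at -2.74, was dim in all 4 cultures and failed the filter. Cartilage and adipocyte markers, listed because S100a1 and S100b are also known from those tissues, gave medians of 0.04 over 8 genes and 0.11 over 7, which turned to -0.08 and -0.02 with the arrays centred on their medians. The cartilage median ran from -0.10 to 0.45 and the adipocyte median from 0.15 to 0.43 when single cultures were left out, and with MOE430B first the cartilage median was 0.57. Fabp4, a lipid carrier of fat and capillary cells, differed by 1.11 ± 0.47 (SE) at a limma adjusted p of 0.454, the hormone gene Retn by -0.38 and Pparg, the adipocyte transcription factor, by -0.99. Pparg and Adipoq were dim in all 4 cultures.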
